A study of Bos taurus with 48 samples.

Results

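Expression of 7 genes of fatty acid activation and glycerolipid synthesis was followed across 4 diets and 2 sampling times in adipose tissue of growing heifers. They are 7 of the 24616 gene rows counted in each library. They were chosen by name from the genes of these pathways that the study had listed as differing with dietary energy at 12 months. The genes are ACSL4 (ENSBTAG00000018986), SLC27A6 (ENSBTAG00000004860), SLC27A3 (ENSBTAG00000021862), AGPAT2 (ENSBTAG00000025161), DGAT2 (ENSBTAG00000001154), LPCAT4 (ENSBTAG00000020040) and PLPP3 (ENSBTAG00000011640). All 7 passed the filter on low counts at both sampling times. RNA came from subcutaneous fat biopsied beside the tail base of 24 Norwegian Red heifers, with a biopsy when each was 12 months old and a later one in month 7 of its gestation. The 48 libraries were made from animals chosen for the best RNA quality. The diets combined low or high protein (LP, HP) with low or high energy (LE, HE), with 6 heifers on each of LPHE, LPLE, HPHE and HPLE. HE heifers had grass silage at will, LE heifers had restricted rations of that silage mixed with straw, and the protein level was set by roughage and by the concentrate given to all heifers. The diets ran from 3 months of age until pregnancy was established, after which every heifer received the same pregnancy diet. Each diet held 3 heifers of a line bred for high milk yield (HMY) and 3 of a line bred for low clinical mastitis (LCM). LE heifers became pregnant later, so that energy group and age at the gestation biopsy cannot be told apart.

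Fatty acids are trapped in a cell when they are joined to coenzyme A. ACSL4 is a long-chain acyl-CoA synthetase known for its preference for arachidonic acid, and SLC27A3 and SLC27A6 belong to the fatty acid transport proteins, a family with acyl-CoA synthetase activity. AGPAT2 adds the fatty acid that turns lysophosphatidic acid into phosphatidic acid, and its loss causes congenital lipodystrophy. PLPP3, listed in RefSeq also as PPAP2B, is a lipid phosphate phosphatase that removes phosphate from phosphatidic acid and, at the cell surface, from lysophosphatidic acid. DGAT2 adds the last fatty acid of triacylglycerol, the lipid that fills the fat cell. LPCAT4, listed also as AGPAT7, returns fatty acids to lysophospholipids of membranes.

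Levels are given as CPM, the reads of a gene scaled to the size of its library after TMM scaling over the 48 libraries, and differences as log2 fold changes with a standard error (SE) from edgeR's likelihood ratio test. A gene was called when its Benjamini-Hochberg false discovery rate (FDR) over all genes tested was under 0.1, or under 0.05 in the HE-LE contrast. On simulated counts this test made more false calls than edgeR's quasi-likelihood F test, and the calls that the latter did not make are named. Between 14815595 and 61027456 reads per library were assigned to genes. SLC27A6 was the least counted of the genes, with 24 to 305 reads per library, and DGAT2 the most counted, with 32832 to 348171 reads. Transcript lengths on the build of the files were not used here, so levels were compared between samples and never between genes.

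**Figure D1:**
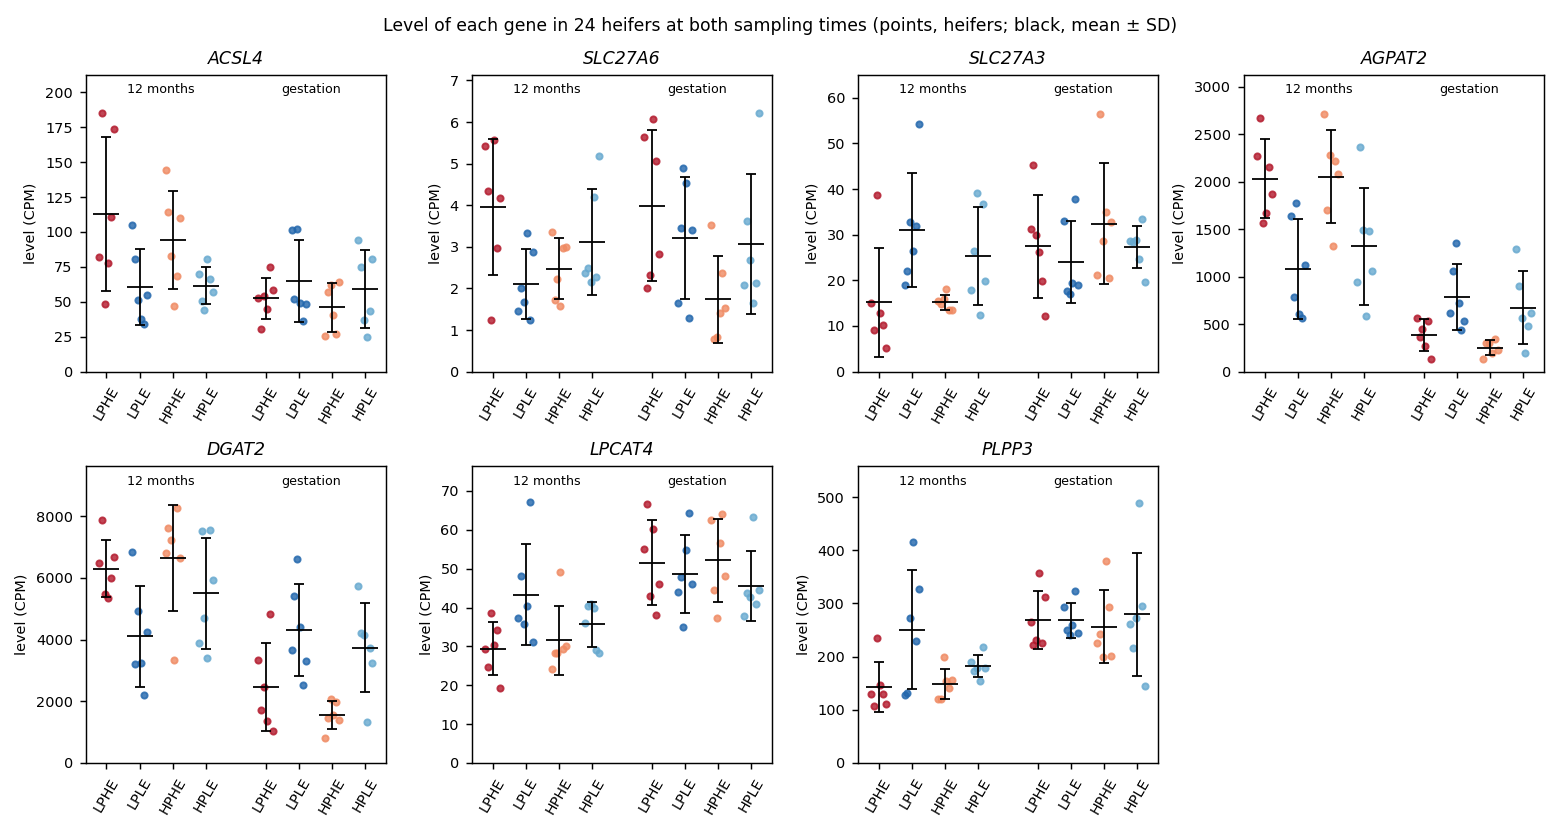
Level of each of the 7 genes in CPM (vertical axes, linear, from 0) in the 24 heifers by diet at 12 months (left of each panel) and in gestation month 7 (right). Points are heifers, black bars are the mean and error bars the SD (n = 6); AGPAT2 stood between 563 and 2716 CPM at 12 months and between 130 and 1353 CPM in gestation.

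The energy effect at 12 months was largest in number under low protein. In LPHE-LPLE, 6 of the 7 genes were called, against 7.08% of all genes tested. ACSL4, SLC27A6 and AGPAT2 were higher in LPHE, and SLC27A3, LPCAT4 and PLPP3 were lower. The median difference of the 7, which ran both ways, was 0.61, the value of DGAT2, against -0.02 over all genes tested. The 7 genes were taken from a list that the study drew up on this contrast in these same libraries, so the count and the directions are a description and no independent evidence.

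Among the activation genes, ACSL4 stood at 48.7 to 185 CPM in LPHE (median 96.4) and at 34.3 to 105 CPM in LPLE (median 52.8). The groups overlapped, with 3 of 6 LPHE heifers above every LPLE heifer. The difference was 0.86 (SE 0.30, FDR 0.0706), a fold of 1.81. SLC27A3 ran the other way. It stood at 5.21 to 38.7 CPM in LPHE (median 11.5) and at 19.1 to 54.2 CPM in LPLE (median 29.3), and 5 of 6 LPHE heifers lay under every LPLE heifer. LPHE was lower than LPLE by 2.20-fold (log2 fold change -1.13, SE 0.33, FDR 0.0241). The LPHE heifer at 38.7 CPM, heifer 12, was the exception, and without it the difference was 2.99-fold. SLC27A6 stood at 1.24 to 5.56 CPM in LPHE (median 4.27) and at 1.25 to 3.33 CPM in LPLE (median 1.85). Here 4 of 6 LPHE heifers exceeded all LPLE heifers, and heifer 12 was under all of them. The difference of 0.92 (SE 0.34) passed narrowly, at an FDR of 0.0999, and was kept in only 6 of 24 fits that each left out 1 heifer.

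Among the genes of glycerolipid assembly, AGPAT2 stood at 1564 to 2667 CPM in LPHE (median 2011) and at 563 to 1776 CPM in LPLE (median 952). All 6 LPHE heifers were above the LPLE median, and 4 of them were above every LPLE heifer. The difference was 0.93 (SE 0.28, FDR 0.0321), a fold of 1.90. DGAT2, the acyltransferase of the last step, stood at 5333 to 7865 CPM in LPHE (median 6233) and at 2198 to 6854 CPM in LPLE (median 3734). It was the member that was not called, with a difference of 0.61 (SE 0.25, FDR 0.138, unadjusted p 0.0126 in edgeR). Without heifer 15, an HPHE animal that is in the shared fit but not in this contrast, DGAT2 was called at an FDR of 0.0904, and it was also called without heifer 4, the LPLE animal at 6854 CPM, whose library was muscle-rich (58.6 CPM of skeletal muscle markers). PLPP3 stood at 107 to 234 CPM in LPHE (median 130) and at 128 to 415 CPM in LPLE (median 251), with overlapping groups. It was lower in LPHE by 1.78-fold (log2 fold change -0.84, SE 0.24, FDR 0.0248). LPCAT4 stood at 19.3 to 38.5 CPM in LPHE (median 29.9) and at 31.2 to 67.1 CPM in LPLE (median 38.8), and 4 of 6 LPHE heifers were under every LPLE heifer. It was lower in LPHE by 1.49-fold (log2 fold change -0.57, SE 0.21, FDR 0.0859).

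Several calls changed with single animals. Without LPHE heifer 5, LPLE heifer 14 or LPLE heifer 18, 2 of the 7 genes were called. Without heifer 12, which held the highest SLC27A3 and PLPP3 of LPHE, and likewise without heifer 15, all 7 were called. The quasi-likelihood F test called 4 genes and not ACSL4 (FDR 0.131) or LPCAT4 (FDR 0.102), and DESeq2 called 6.

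Some cell type markers differed between LPHE and LPLE at 12 months. Markers could be named only where the study paired a symbol with an identifier, in its lists of genes that differed by diet at 12 months. Their counts and directions are therefore a description and no independent evidence. Summed over DCN, COL1A1, COL1A2, COL3A1 and PI16, 5 of 10 fibroblast markers that could be matched to a row, levels ran from 19630 to 57820 CPM in LPHE and from 36940 to 98820 CPM in LPLE, and all 5 were lower in LPHE. The adipocyte markers LEP and CIDEC, 2 of 8, summed to 2043 to 3357 CPM in LPHE and 886.9 to 2604 CPM in LPLE, and LEP was called higher in LPHE while CIDEC was not called (FDR 0.132). The 5 of 9 skeletal muscle markers summed to 0.686 to 1.32 CPM in LPHE and reached 58.6 CPM in an LPLE library, and all 5 were called lower in LPHE. DSP, 1 of 6 skin markers, reached 68.9 CPM in an LPHE library and 9.36 CPM in LPLE. The 3 of 6 smooth muscle markers reached 483 CPM in LPHE and 2667 CPM in LPLE. Neither DSP nor the smooth muscle markers were called in LPHE-LPLE. In HPHE-HPLE at 12 months none of the matched markers was called, where 0.12% of all genes were called. The skeletal muscle markers there had median sums of 10.9 CPM in HPHE and 4.47 CPM in HPLE. Endothelial, immune and red cell markers could not be matched to a row, because the study paired none of their symbols with an identifier. The part of these markers in the differences of the 7 genes was not tested, and in bulk tissue fewer cells of a type and less RNA per cell cannot be told apart. With the 6 libraries above 50 CPM of skeletal muscle markers left out, 6 genes were called in LPHE-LPLE, DGAT2 in place of SLC27A6.

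HPHE and HPLE heifers were other animals than those of the list. None of the 7 genes was called in HPHE-HPLE at 12 months, where 0.12% of all genes were called, and none was called by the quasi-likelihood F test or by DESeq2. Unadjusted p-values of the edgeR fit were under 0.05 for 3 of the 7 genes and for 964 of all 13339. The median difference of the 7 was -0.18, against -0.01 over all genes. As the 7 ran both ways, this median is the value of LPCAT4, and only SLC27A6 had another sign than in LPHE-LPLE. AGPAT2 stood at 1320 to 2716 CPM in HPHE (median 2154) and at 582 to 2364 CPM in HPLE (median 1267), a difference of 0.61 (SE 0.28, FDR 0.599). ACSL4 stood at 47.1 to 144 CPM in HPHE and at 44.3 to 80.7 CPM in HPLE, with 4 of 6 HPHE heifers above every HPLE heifer and a difference of 0.61 (SE 0.29, FDR 0.640). SLC27A3 was narrow in HPHE, at 13.5 to 18.01 CPM, and wide in HPLE, at 12.3 to 39.2 CPM (log2 fold change -0.70, SE 0.32, FDR 0.614). These groups overlapped for all 7 genes.

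The other 4 genes had smaller differences under high protein. They were 0.26 (SE 0.24) for DGAT2, -0.30 (SE 0.24) for PLPP3, -0.18 (SE 0.21) for LPCAT4 and -0.26 (SE 0.34) for SLC27A6. SLC27A6 was the gene whose estimates at low and high protein had unlike signs. The energy effect was nevertheless not shown to differ between protein levels: in the direct test of that difference 0 of 7 genes were called at 12 months, where 0.105% of all genes were called, also by the quasi-likelihood F test and DESeq2. SLC27A6 had the smallest unadjusted p of that edgeR test, 0.0142, with a difference of effects of 1.18 (SE 0.48, FDR 0.993).

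Taking both protein levels, which reuses the libraries above, 4 of 7 genes were called in HE-LE at 12 months, against 7.2% of all genes. The LPHE and LPLE libraries on which the genes were chosen enter this contrast, so the count is a description and no independent evidence. ACSL4 stood at 47.1 to 185 CPM in the 12 HE heifers (median 96.3) and at 34.3 to 105 CPM in the 12 LE heifers (median 55.8), and was higher in HE by 0.74 (SE 0.21, FDR 0.0127). AGPAT2 stood at 1320 to 2716 CPM in HE (median 2120) and at 563 to 2364 CPM in LE (median 1088), a difference of 0.77 (SE 0.20, FDR 0.00493). The ranges crossed for both genes.

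SLC27A3 had medians of 14.2 CPM in HE and 26.5 CPM in LE and was lower in HE by 1.89-fold (log2 fold change -0.91, SE 0.23, FDR 0.00388). PLPP3 had medians of 136 CPM in HE and 184 CPM in LE (log2 fold change -0.57, SE 0.17, FDR 0.0215). PLPP3 lost its call without LPHE heifer 5 or without heifer 14, the LPLE animal at 415 CPM. DGAT2 (0.43, SE 0.17, FDR 0.103) and LPCAT4 (-0.37, SE 0.14, FDR 0.0919) missed the threshold of 0.05, and SLC27A6 had a difference of 0.33 (SE 0.24, FDR 0.451). Both DGAT2 and LPCAT4 were called without heifer 15, whose HPHE library had the lowest DGAT2 of its diet (3336 CPM), the highest LPCAT4 (49.1 CPM) and 6210 CPM of smooth muscle markers. The part of that library's smooth muscle content was not tested.

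**Figure D2:**
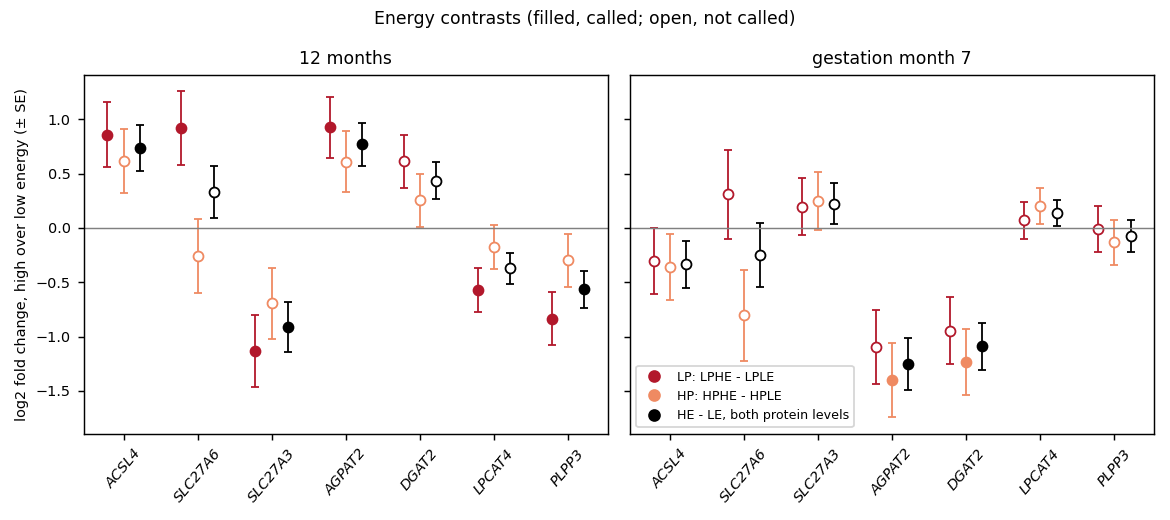
Log2 fold change of high over low energy (vertical axis; error bars, SE) for the 7 genes at 12 months and in gestation month 7, at low protein (red), high protein (orange) and over both (black), with filled points for called genes. AGPAT2 and DGAT2 lie above 0 at 12 months and below 0 in gestation, at -1.25 and -1.09 over both protein levels.

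By month 7 of gestation all heifers ate the same diet, and the comparison is between the former energy groups. These groups also differed in age at this biopsy, so earlier energy level and age cannot be told apart here. AGPAT2 and DGAT2 were then lower in the former HE heifers. AGPAT2 stood at 130 to 568 CPM in the 12 HE heifers (median 303) and at 193 to 1353 CPM in the 12 LE heifers (median 616). DGAT2 stood at 811 to 4834 CPM in HE (median 1642) and at 1332 to 6602 CPM in LE (median 3936). HE was lower by 2.38-fold for AGPAT2 (log2 fold change -1.25, SE 0.24, FDR 5.74e-05) and by 2.13-fold for DGAT2 (log2 fold change -1.09, SE 0.21, FDR 8.65e-05). These 2 of 7 genes were called in HE-LE, against 3.74% of all genes, and were called in each of the 24 fits that left out 1 heifer.

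The same direction held within each protein level, in contrasts that share these libraries. In HPHE-HPLE, both genes were called (2 of 7, against 0.948% of all genes): AGPAT2 stood at 135 to 341 CPM in HPHE and 193 to 1295 CPM in HPLE (log2 fold change -1.40, SE 0.34, FDR 0.0128). DGAT2 stood at 811 to 2068 CPM in HPHE and 1332 to 5745 CPM in HPLE (log2 fold change -1.24, SE 0.30, FDR 0.0137). All 6 HPHE heifers lay under the HPLE median for both genes, and the low end of HPLE was heifer 13 in both. Neither call was kept by the quasi-likelihood F test or without HPLE heifer 7, when FDR was 0.119 for AGPAT2 and 0.114 for DGAT2, and the AGPAT2 call was also lost without HPLE heifer 1. In LPHE-LPLE, 0 of 7 genes were called, against 1.05% of all genes, while the unadjusted p was under 0.05 for 2. These were AGPAT2 (-1.10, SE 0.34, FDR 0.111) and DGAT2 (-0.95, SE 0.30, FDR 0.135), of which the quasi-likelihood F test called neither and DESeq2 called both. AGPAT2 stood at 130 to 568 CPM in LPHE and at 440 to 1353 CPM in LPLE, with 3 of 6 LPHE heifers under every LPLE heifer.

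The other 5 genes were not called by diet in gestation. ACSL4, higher in HE at 12 months, had medians of 53.3 CPM in HE and 50.5 CPM in LE heifers (log2 fold change -0.33, SE 0.22). SLC27A3 had medians of 29.3 and 26.6 CPM, with a difference of 0.22 (SE 0.19). PLPP3 and LPCAT4 had differences of -0.07 (SE 0.15) and 0.14 (SE 0.12), and SLC27A6 of -0.25 (SE 0.30). The marker sums also stood otherwise than at 12 months: the 5 fibroblast markers had a median of 64300 CPM in HPHE, 34980 in HPLE, 43780 in LPHE and 44400 in LPLE. LEP and CIDEC summed to medians of 1892, 2341, 2020 and 2007 CPM in the same order, and neither was called in HE-LE, where 1 of the 5 fibroblast markers was called higher in HE. Their part in the AGPAT2 and DGAT2 values was not tested.

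Between the sampling times 6 of the 7 genes were called in each HE diet, 0 in LPLE and 1 in HPLE. Age, pregnancy and the change of diet came together, so these cannot be told apart. The libraries of both times entered 1 fit. Its 12-month LPHE and LPLE libraries are those on which the genes had been chosen. In LPHE, 6 of 7 genes were called, against 29.8% of all genes. In HPHE the count was also 6 of 7, against 32.4% of all genes. In LPLE it was 0 of 7, against 0.598%, with no unadjusted p under 0.05 and no call by the quasi-likelihood F test or DESeq2. In HPLE it was 1 of 7, against 2.62%, and 3 of the 7 had an unadjusted p under 0.05.

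**Figure D3:**
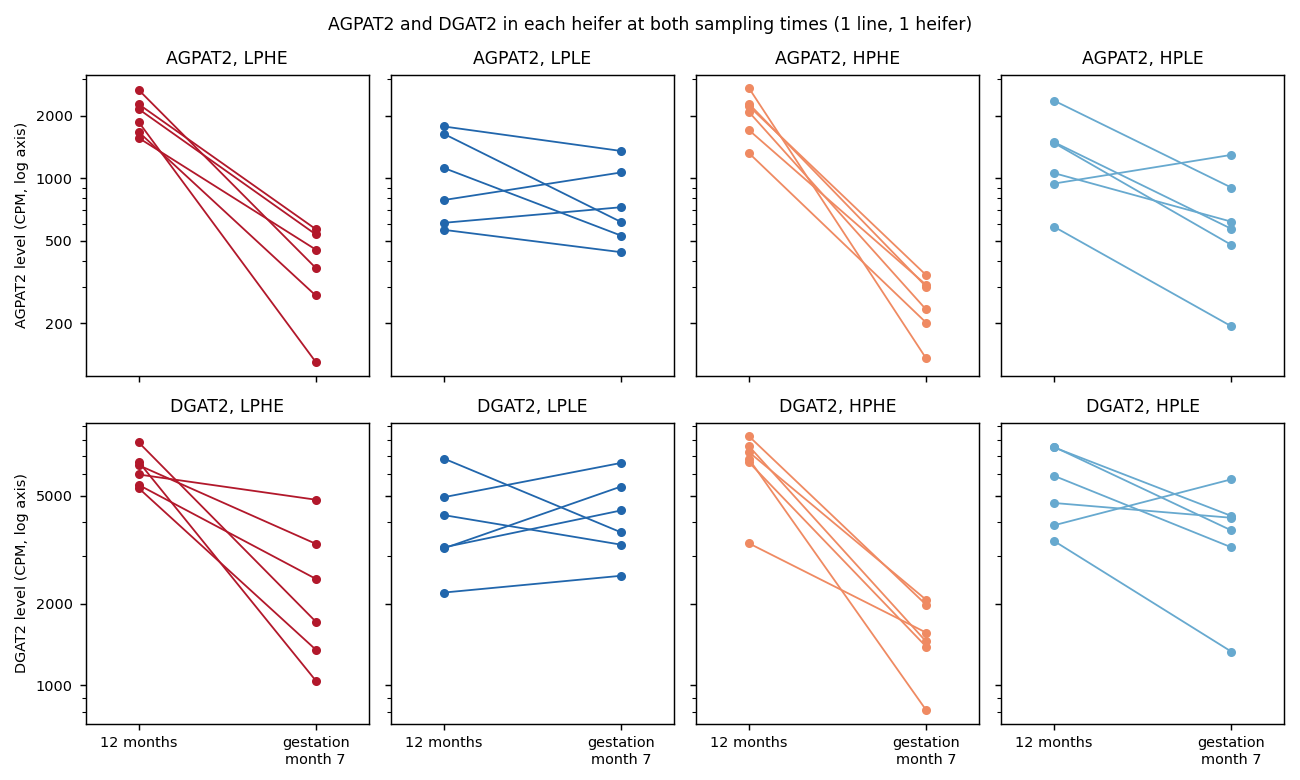
AGPAT2 (top) and DGAT2 (bottom) in CPM on a log axis for each heifer at 12 months and in gestation month 7, with a panel for each diet and a line for each heifer. All 12 HE heifers had lower levels of both genes in gestation, while lines of LPLE and HPLE run both ways.

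AGPAT2 had the largest change of the 7. In LPHE it went from 1564 to 2667 CPM (median 2011) to 130 to 568 CPM (median 411), and in HPHE from 1320 to 2716 CPM (median 2154) to 135 to 341 CPM (median 266). The times did not overlap in either diet. AGPAT2 fell by 2.45 on the log2 scale in LPHE (SE 0.34, FDR 1.75e-10) and by 3.00 in HPHE (SE 0.35, FDR 1.03e-14), folds of 5.463 and 7.999. Heifer by heifer it was lower in gestation in 12 of 12 HE heifers and in 9 of 12 LE heifers, with median falls of 6.54-fold and 1.90-fold. In HPLE it fell by 0.99 (SE 0.32, FDR 0.0869), a call kept in 11 of the 24 fits without 1 heifer and not made by the quasi-likelihood F test, and in LPLE the estimate was -0.42 (SE 0.32, FDR 0.837).

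DGAT2 followed the same order of diets. In LPHE it went from 5333 to 7865 CPM to 1042 to 4834 CPM, and in HPHE from 3336 to 8277 CPM to 811 to 2068 CPM, without overlap in either diet. It fell by 1.44 in LPHE (SE 0.29, FDR 2.38e-05) and by 2.09 in HPHE (SE 0.30, FDR 2.48e-10). All 12 HE heifers had less DGAT2 in gestation, with a median fall of 4.05-fold. In LPLE, 4 of 6 heifers had more, and the estimate was 0.10 (SE 0.28, FDR 0.989). In HPLE, 5 of 6 had less, and the estimate of -0.60 (SE 0.29, FDR 0.398) was not called.

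Of the activation genes, ACSL4 went from a median of 96.4 to 53.3 CPM in LPHE and from 96.3 to 48.8 CPM in HPHE, with overlapping ranges. It fell by 1.11 in LPHE (SE 0.32, FDR 0.00507) and by 1.04 in HPHE (SE 0.32, FDR 0.00863), and the HPHE call was lost without heifer 2 (FDR 0.102). In HE it was lower in gestation in 11 of 12 heifers, and heifer 12 was the exception. In LE it was lower in 6 of 12, with estimates of 0.10 (SE 0.32) in LPLE and -0.06 (SE 0.32) in HPLE. SLC27A3 went from a median of 11.5 to 28.1 CPM in LPHE and from 15.1 to 30.7 CPM in HPHE, where the ranges did not overlap. It rose by 0.90 in LPHE (SE 0.31, FDR 0.0240) and by 1.12 in HPHE (SE 0.31, FDR 0.00353), and was higher in gestation in 11 of 12 HE heifers, again all but heifer 12. Without LPHE heifer 5, the SLC27A3 call in LPHE was lost (FDR 0.283).

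SLC27A6 was not called in any diet. It was higher in gestation in 6 of 6 LPLE heifers, with an estimate of 0.62 (SE 0.38, FDR 0.715), and lower in 5 of 6 HPHE heifers, with an estimate of -0.48 (SE 0.38, FDR 0.368). In LPHE the estimate was 0.04 (SE 0.37, FDR 0.951). With the replicate block, in which each heifer is compared with itself, SLC27A6 was called in HPHE, with a fall of 0.62 (log2 fold change -0.62, SE 0.28, FDR 0.0760).

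LPCAT4 and PLPP3 rose in both HE diets. LPCAT4 went from medians of 29.9 and 28.9 CPM in LPHE and HPHE at 12 months to 50.5 and 52.4 CPM in gestation, and was higher in 12 of 12 HE heifers. The rises were 0.80 in LPHE (SE 0.19, FDR 0.000344) and 0.73 in HPHE (SE 0.19, FDR 0.00122). It was also higher in 6 of 6 HPLE heifers, where the estimate of 0.35 (SE 0.19, FDR 0.498) was not called. PLPP3 went from medians of 130 and 147 CPM to 248 and 234 CPM, rises of 0.91 in LPHE (SE 0.23, FDR 0.00117) and 0.79 in HPHE (SE 0.23, FDR 0.00567). In HPLE PLPP3 was higher in 5 of 6 heifers, and the estimate of 0.62 (SE 0.23, FDR 0.185) was not called. In LPLE it was higher in 3 of 6, with an estimate of 0.10 (SE 0.23, FDR 0.982). The 12-month and gestation ranges crossed for LPCAT4 and PLPP3 in both diets.

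**Figure D4:**
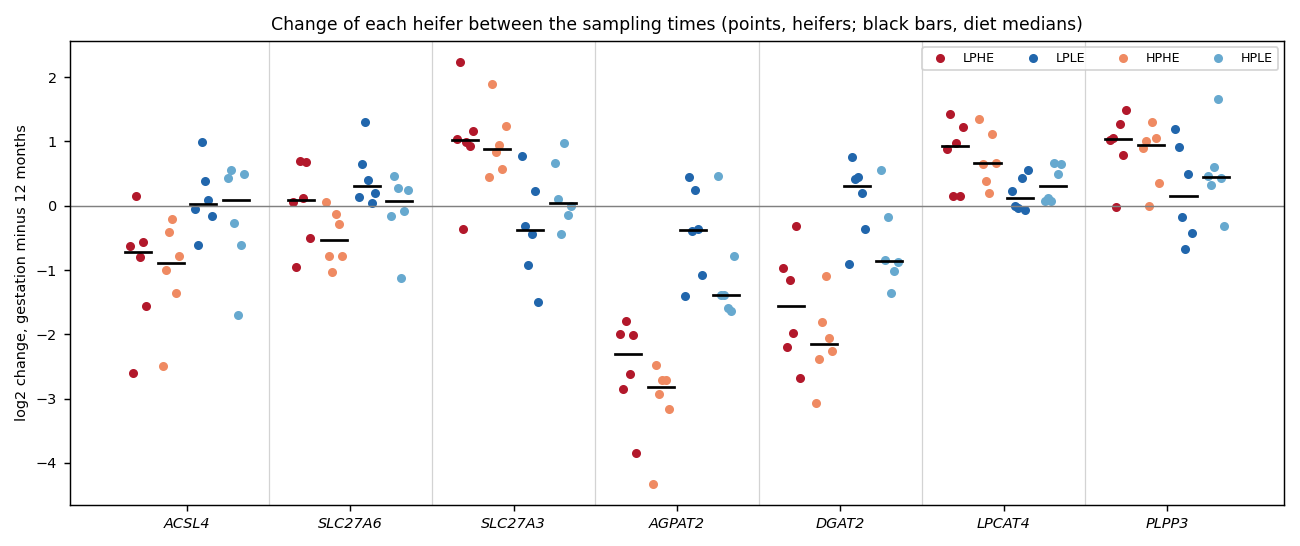
Log2 change from 12 months to gestation month 7 (vertical axis) of each heifer for the 7 genes, coloured by diet, with black bars at the diet medians. In HE heifers AGPAT2 changed by -4.32 to -1.79 and LPCAT4 by 0.15 to 1.42, while LE heifers lie on both sides of 0 for all 7 genes.

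Over all diets, 6 of 7 genes were called between the times, against 44.5% of all genes, so a call there was common. The estimates were -1.72 (SE 0.16) for AGPAT2, -1.01 (SE 0.14) for DGAT2, -0.52 (SE 0.16) for ACSL4, 0.60 (SE 0.12) for PLPP3, 0.51 (SE 0.09) for LPCAT4 and 0.43 (SE 0.16) for SLC27A3. SLC27A6 stood at 0.04 (SE 0.19, FDR 0.893). The difference of the change between HE and LE heifers was tested directly, and 5 of 7 genes were called, against 21.3% of all genes. This test subtracts the energy difference at 12 months, part of which was used to choose the genes, so the count is a description and no independent evidence. AGPAT2 had a difference of -2.02 (SE 0.32, FDR 1.45e-07), DGAT2 of -1.52 (SE 0.29, FDR 9.76e-06) and ACSL4 of -1.10 (SE 0.32, FDR 0.00792), all falling further in HE. SLC27A3 had a difference of 1.15 (SE 0.31, FDR 0.00423), and LPCAT4 of 0.51 (SE 0.19, FDR 0.0455). PLPP3 (0.49, SE 0.23, FDR 0.136) and SLC27A6 (-0.52, SE 0.38, FDR 0.370) were not called. The LPCAT4 call was lost without heifer 2, 5 or 9.

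Fibroblast and adipocyte markers moved in the same test, in which 21.3% of all genes were called. It subtracts the difference at 12 months, and the markers could be named only through the study's lists of that time. The marker counts are therefore no independent evidence. All 5 fibroblast markers with a row were called in the direction opposite to AGPAT2, with a median difference of 0.996, and LEP and CIDEC were called in its direction, at -1.57 and -0.70. In the LPHE and HPHE changes themselves, 2 of the 5 fibroblast markers were called higher in gestation in each diet. Of all genes 29.8% and 32.4% were called there, in either direction. The median change of the 5 markers was 0.38 in LPHE and 0.85 in HPHE. LEP was not called (-0.02 and -0.48), and CIDEC fell by 0.53 and 0.77, while AGPAT2 fell by 2.45 and 3.00. The part of these markers in the changes of the 7 genes was not tested.

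Protein level left no called difference in the 7 genes. In HPHE-LPHE at 12 months 0 of 7 were called, against 0.0225% of all genes, and in HPLE-LPLE 0 of 7, against 0.0225%. In gestation it was 0 of 7 in HPHE-LPHE, against 0.00746%, and 0 of 7 in HPLE-LPLE, against 0.0746%. The quasi-likelihood F test and DESeq2 also called none. For AGPAT2 in HPHE-LPHE at 12 months the difference was 0.00 with a 95% interval from -0.54 to 0.54 (log2), and for DGAT2 0.07 with an interval from -0.40 to 0.55. For SLC27A6 the interval at 12 months ran from -1.27 to 0.06. Over both contrasts and times 1 estimate had an unadjusted p under 0.05, that of SLC27A6 in HPHE-LPHE in gestation (edgeR, p 0.00422, FDR 1). It stood at 0.789 to 3.52 CPM in HPHE (median 1.47) and at 2.0 to 6.08 CPM in LPHE (median 3.94), with 4 of 6 HPHE heifers under every LPHE heifer. The log2 fold change was -1.19 (SE 0.42).

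The protein dependence of the energy effect in gestation was not called either, for 0 of 7 genes against 0.00746% of all genes, with no unadjusted p under 0.05. Between the breeding lines, HMY-LCM, 0 of 7 genes were called at 12 months, against 0.03% of all genes, and 0 of 7 in gestation, against 0.179%. Other tools called none there. At 12 months the estimates ran from -0.46 (SE 0.24) for SLC27A6 to 0.38 (SE 0.23) for SLC27A3. The unadjusted p of SLC27A6 was 0.0567 in the edgeR likelihood ratio test, 0.0473 in the quasi-likelihood F test and 0.0411 in DESeq2. In gestation they ran from -0.15 (SE 0.12) for LPCAT4 to 0.52 (SE 0.22) for DGAT2, the gene with an unadjusted p under 0.05 in the likelihood ratio test (edgeR p 0.0147, FDR 0.611).

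Because the same heifers were sampled at both times, it could be asked whether an animal kept its rank within its diet. Deviations from the diet mean were correlated over 24 heifers for all 13135 genes tested at both times, with permutations of heifers within diet and Benjamini-Hochberg adjustment over those genes. The median r of all genes was 0.295, and 14.7% of them had an adjusted p under 0.1. SLC27A6 was the single one of the 7 genes in that share, and 1 of 7 is near the share of all genes. Breeding line was not removed from the deviations. SLC27A6 had Pearson's r 0.563 (permutation p 0.00592, adjusted 0.0648) and Spearman's rho 0.617 (permutation p 0.00311), and 88.3% of genes had a lower Pearson's r. Pearson's r was 0.507 without the 2 heifers farthest from the median. For the other 6 genes r ran from -0.147 for PLPP3 to 0.356 for AGPAT2, with adjusted p from 0.304 to 0.841, and r of AGPAT2 was 0.0758 without the 2 heifers farthest from its median. Permutation p-values of r ran from 0.130 to 0.740.

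**Figure D5:**
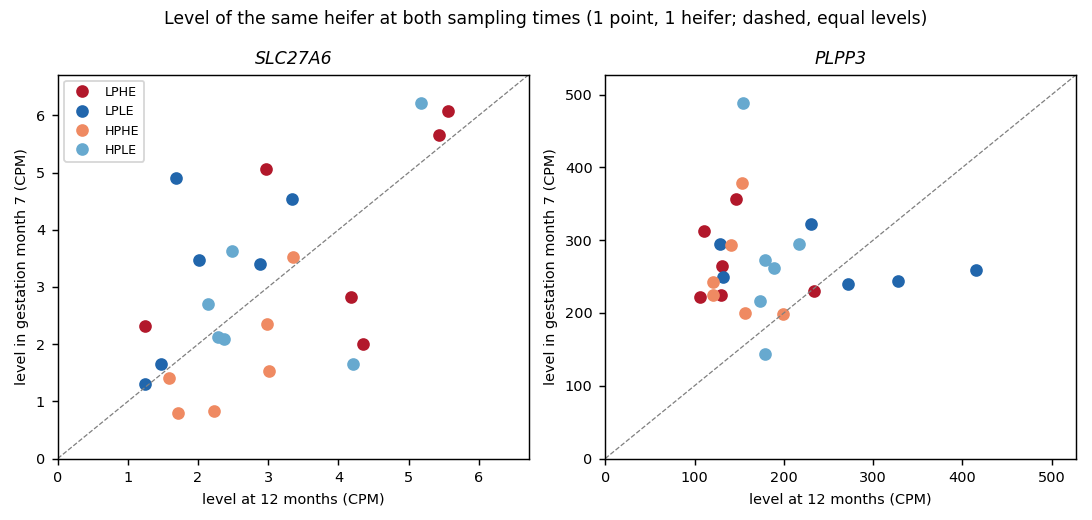
Level of SLC27A6 (left) and PLPP3 (right) in gestation month 7 (vertical axis, CPM) against the level of the same heifer at 12 months (horizontal axis, CPM), coloured by diet, with a dashed line of equal levels. SLC27A6 points rise together (r 0.563 after the diet means were removed), and PLPP3 points do not (r -0.147).

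Across libraries the acyltransferases AGPAT2 and DGAT2 moved together, with r 0.867 over the 24 libraries of 12 months and 0.954 over the 24 of gestation. Within diets r was 0.829 and 0.914. ACSL4 and LPCAT4 ran opposite at both times (r -0.728 and -0.796). ACSL4 and SLC27A3 were opposite at 12 months (r -0.780) and little related in gestation (r -0.123), and SLC27A3 and PLPP3 went from 0.753 to 0.0563. These values are descriptions of libraries that share diets, tissue makeup and scaling.

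Genes outside the 7 were ranked by the same measure over the 24 libraries of 12 months, and the leading genes with a known symbol are given here. HAGH and GYPC were most like AGPAT2, with r 0.893 and 0.887, and 0.910 and 0.931 in gestation. MRPS28 was most like DGAT2 (r 0.907, then 0.777), WNK4 most like SLC27A3 (r 0.899, then 0.604) and CGREF1 most like PLPP3 (r 0.901, then 0.497). SMG6 came after CGREF1 (r 0.870, then 0.587), BMX was second for LPCAT4 (r 0.894, then 0.454), and LOC616942 was most like SLC27A6 (r 0.817, then 0.426). The leading genes of ACSL4 had no symbol in the tables used here.

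The other 23 lipid genes that the study listed with these 7 were also chosen on LPHE-LPLE at 12 months, where 20 were called higher and 1 lower. ELOVL6, a fatty acid elongase, was the highest (1.58), and FADS2, a desaturase, was the lower one (-1.14). Their direction in HE-LE in gestation was the one seen for AGPAT2 and DGAT2, with 12 called lower and 0 called higher. Their median was -0.44, against 0.01 over all genes. Of all 13403 genes in that contrast 356 were called lower and 145 called higher. Between the times 22 of 23 were called lower in gestation in LPHE and 22 in HPHE, 1 in LPLE and 3 in HPLE. Of all 13718 genes 2197, 2175, 36 and 144 were called lower in the same diets. FASN, the fatty acid synthase, had the largest change over all diets, a fall of 1.59 (SE 0.18). Over all diets 23 of 23 were called lower in gestation, as were 3105 of all 13718 genes, whereas SLC27A3, LPCAT4 and PLPP3 were called higher. The 12-month libraries on which these genes were listed enter the contrasts between the times. The counts and directions are therefore a description and no independent evidence. A wider list of 89 genes of uptake, activation, glycerolipid and phospholipid synthesis, lipid droplets and their regulators could not be counted, because the rows of 7.87% of it were identified.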

How the data were processed

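The data were RNA-seq libraries from adipose biopsies of 24 heifers, each sampled at 2 times (poly(A) RNA, unstranded kit, paired reads). Per the labels and the study's methods, the authors trimmed reads with cutadapt 1.3, aligned them with TopHat2 2.0.12 to UMD3.1 and counted them over Ensembl genes with HTSeq. The deposited files hold unnormalized whole-number counts for each gene. As the kit was unstranded, reads of overlapping genes cannot be told apart by strand. The strand setting of the counting is not given in the sources used here. The 5 closing summary rows of each file named no gene, held 38.9% to 61.0% of the column totals, and were left out.

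Counts were fitted with edgeR 4.0.16 in R 4.3.3, after the study's methods in the filter (at least 2 CPM in at least 3 samples) and the tagwise dispersions. TMM scaling is not stated there and was chosen here, and the number of genes kept differs from the study's. The fit was a generalized linear model of diet and genetic group for the 24 libraries of each time, tested by a likelihood ratio test with Benjamini-Hochberg adjustment over all genes tested (13339 at 12 months, 13403 in gestation). Times were compared in 1 model of all 48 libraries (13718 genes). The SE was taken as the size of the log2 fold change over the root of its likelihood ratio statistic. Levels for heifer changes and correlations were log2(CPM + 0.5), and correlations used 100000 permutations (numpy 2.4.6, scipy 1.17.1). The 2 libraries of a heifer share the animal, and deviations of a heifer's libraries from their group means correlated over genes with r from -0.06 to 0.60 (median 0.31, over 0.1 in 20 of 24). The fit with the replicate block is given where it changes a call. Alternatives were the quasi-likelihood F test, DESeq2 1.42.0, other scalings and filters, other sets of samples and leaving out each heifer. The fits were tested on simulated data, where the likelihood ratio test made more false calls than the quasi-likelihood F test.

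The 7 genes were reported in every comparison, singly or by their count and range, with those of the 2 most similar genes of each that had a symbol, and the extremes of the lipid list. The members, lists and tests were chosen with earlier results of these data known. Symbols come from the study's own pairing of Ensembl identifiers, and RefSeq (ARS-UCD2.0) gave synonyms only.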

Additional observations from a re-analysis of the deposited data

Results flagged for a closer look

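A single heifer stood apart from the other 5 of its diet in 5 of 56 groups of 6, by Dixon's 95% criterion, which chance alone meets in about 1 in 20 groups. In LPHE at 12 months SLC27A3 was 38.7 CPM and PLPP3 234 CPM in heifer 12, where the nearest other heifers had 15 and 147 CPM. This library also had the highest sum of fibroblast markers in LPHE, 57820 CPM. In HPHE at 12 months DGAT2 was 3336 CPM and LPCAT4 49.1 CPM in heifer 15, where the nearest others had 6637 and 30.1 CPM, and its smooth muscle markers summed to 6210 CPM. In HPLE in gestation LPCAT4 was 63.3 CPM in heifer 13, nearest other 44.5 CPM, and its fibroblast markers summed to 102500 CPM, the highest of the diet. The part of these marker levels was not tested.

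The difference between HE and LE heifers was unlike at the 2 sampling times by a direct test in 5 genes. In gestation the energy groups also differed in age, which cannot be told apart from the earlier diet. The genes were chosen on an energy difference at 12 months, which enters this test, so the count is no independent evidence. The differences, gestation minus 12 months, were -2.02 for AGPAT2, -1.52 for DGAT2, -1.10 for ACSL4, 1.15 for SLC27A3 and 0.51 for LPCAT4 on the log2 scale. The estimates of all 5 changed sign. They went from 0.77 to -1.25 for AGPAT2, from 0.43 to -1.09 for DGAT2, from 0.74 to -0.33 for ACSL4, from -0.91 to 0.22 for SLC27A3 and from -0.37 to 0.14 for LPCAT4. DGAT2 and LPCAT4 at 12 months and ACSL4, SLC27A3 and LPCAT4 in gestation were not called.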

How the results depend on the processing

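No estimate that was called in the reported fits changed sign under any other setting that was run. Of the 7 genes, the number called in LPHE-LPLE at 12 months was 6, and it was 3 at an FDR of 0.05, 0 among HMY heifers alone and 2 to 7 when single heifers were left out. In HE-LE at 12 months it was 4, with 0 in HMY heifers, 2 in LCM heifers and 3 to 6 without single heifers. HPHE-HPLE at 12 months gave 0 to 1 without single heifers, the call being AGPAT2 without heifer 7. In gestation, LPHE-LPLE (0 called) gave 2 with DESeq2, 2 with only the 12 samples of the contrast, 2 in LCM heifers, 1 with the muscle-rich libraries left out and 0 to 2 without single heifers. HPHE-HPLE (2 called) gave 0 with the quasi-likelihood F test, 0 in LCM heifers and 0 to 2 without single heifers. HE-LE in gestation (2 called) gave 0 in HMY heifers and 2 in every fit without a heifer. The HPLE change between times (1 called) gave 0 at an FDR of 0.05, with the quasi-likelihood F test, with library size only, with no filter, without genetic group, with a dispersion prior estimated from the data and with the muscle-rich libraries left out, and 0 to 1 without single heifers. Fits within a line have 3 heifers per diet. The cause was not tested. The alternatives on the dispersion prior, on muscle-rich libraries and on the block with the quasi-likelihood F test were chosen after seeing the data.

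The replicate block, a paired fit with each heifer as a term, called 6 genes over all diets, 7 in HPHE and 5 in the test of energy by time, as against 6, 6 and 5, and changed no call but that of SLC27A6 in HPHE. With library size alone the median of all genes was 0.19 for LPHE between times, against 0.03 in the reported fit, and -0.10 for HE-LE at 12 months, against -0.03, and no called gene turned its direction there. Over all genes and settings, the number called moved from 944 to between 66 and 1615 in LPHE-LPLE and from 960 to between 258 and 1598 in HE-LE at 12 months. In gestation it moved from 141 to between 0 and 423 in LPHE-LPLE, from 127 to between 0 and 173 in HPHE-HPLE and from 501 to between 46 and 1151 in HE-LE. Between the times it moved from 360 to between 227 and 736 in HPLE, from 82 to between 43 and 493 in LPLE and from 2917 to between 2047 and 4771 for energy by time. SLC27A6 had the fewest reads of the 7 genes, 24 in its lowest library.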
